A study of Mus musculus with 6 samples.

Results

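The genes described here are 10 components of NF-kB signalling downstream of the interleukin-1 and tumour necrosis factor receptors. They were taken by symbol from a list of receptors, adaptors, subunits and inhibitors, and all 10 were found among the 24421 genes measured. They are the receptors Il1r1 and Tnfrsf1a, the adaptor Myd88 and the kinase Irak1, the subunits Nfkb1, Nfkb2, Rela and Relb, and the inhibitors Nfkbia and Tnfaip3. RNA came from nuclei sorted from the medial prefrontal cortex of Foxp2-Cre mice. The 3 CFA libraries came from mice given CFA (complete Freund's adjuvant, a mycobacterial emulsion that causes long-lasting inflammatory pain), and the 3 saline libraries from controls given saline. Mice of both groups carried Cre driven by Foxp2, a transcription factor of deep-layer corticothalamic neurons. All had received a bilateral prefrontal injection of a viral vector for KASH-GFP, a fluorescent protein anchored at the nuclear envelope, 4 weeks before collection. Each library was made from 10000 nuclei. The strain, the age, the interval between CFA or saline and collection, and whether each library came from a separate animal were not stated. If libraries share animals, p-values measure only the spread between these libraries.

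NF-kB is a family of dimeric transcription factors that resting cells hold inactive in the cytoplasm, bound to inhibitory IkB proteins. Binding of IL-1 to its receptor recruits the adaptor Myd88 and IRAK kinases, while TNF signals through its own receptor, and both routes activate the IKK complex, which marks IkB for destruction and frees the dimers. The dimers then switch on inflammatory genes and also their own brakes, among them Nfkbia and Tnfaip3, so that transcripts of these brakes are commonly read as a trace of recent activity. In the brain these pathways are best known from microglia, astrocytes and blood vessels, and activated glia are the main source of IL-1 and TNF.

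The libraries held 9673038 to 11850741 counts. Levels are given as CPM, the counts relative to each library's TMM-scaled total, with means ± SD over 3 libraries, and 1 count was worth 0.0832 to 0.101 CPM. The excitatory marker Slc17a7 averaged 2279 ± 357 CPM with CFA and 2144 ± 177 CPM with saline, and Foxp2 itself 29.2 ± 5.50 CPM with CFA and 33.8 ± 8.61 CPM with saline. Saline replicate 3 stood apart in its nuclear RNA: the long non-coding RNA Malat1 took 2.77% of its counts, against 1.36% to 2.2% in the other 5 libraries. Saline replicate 1 stood apart in transcripts of striatal neurons: the summed level of 7 markers was 747 CPM, against 201 to 371 CPM in the other 5 libraries. Transcripts of glia were present in every library. The summed level of 17 microglia markers ran from 117 to 185 CPM in CFA and from 98.4 to 155 CPM in saline libraries, and that of 10 astrocyte markers from 231 to 329 CPM in CFA and from 202 to 217 CPM in saline libraries.

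None of the 9 members tested was called higher or lower in CFA libraries. The question was whether the transcripts that carry this signal differ in Foxp2-positive prefrontal neurons of mice given CFA. Of the 10 members 9 passed the filter on low counts, all but Tnfrsf1a. Under edgeR's quasi-likelihood test, with p-values adjusted by Benjamini-Hochberg over 13560 genes, 0 of the 9 had an adjusted p under 0.05, and 0% of all genes tested did. At an unadjusted p under 0.05 there were also 0 of 9, against 3.22% of all genes tested (1.35% higher and 1.87% lower in CFA libraries). DESeq2, limma-voom and edgeR's likelihood ratio test likewise called 0 of the 9, with 0 of 9 at an unadjusted p under 0.05. Over all 13560 genes, DESeq2 called 5 and limma-voom 0, and 457 and 469 were under that unadjusted p. The calls of the likelihood ratio test over all genes are given at the end. For 0 of the 9 did the CFA and saline libraries separate without overlap, against 7.51% of all genes tested (3.55% with CFA above and 3.97% with CFA below). The fitted log2 fold change, CFA over saline, was positive for 7 members and negative for 2, where 49.8% of all genes tested were positive, with a median of 0.145, against -0.0011 over all genes tested. The median of the members was 0.0146 without saline replicate 1, the library high in striatal markers, whose part in it was not tested, and 0.0475 without CFA replicate 3. In bulk nuclei, fewer expressing cells and less RNA per cell cannot be told apart, for the members and for all genes below.

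**Figure D1:**
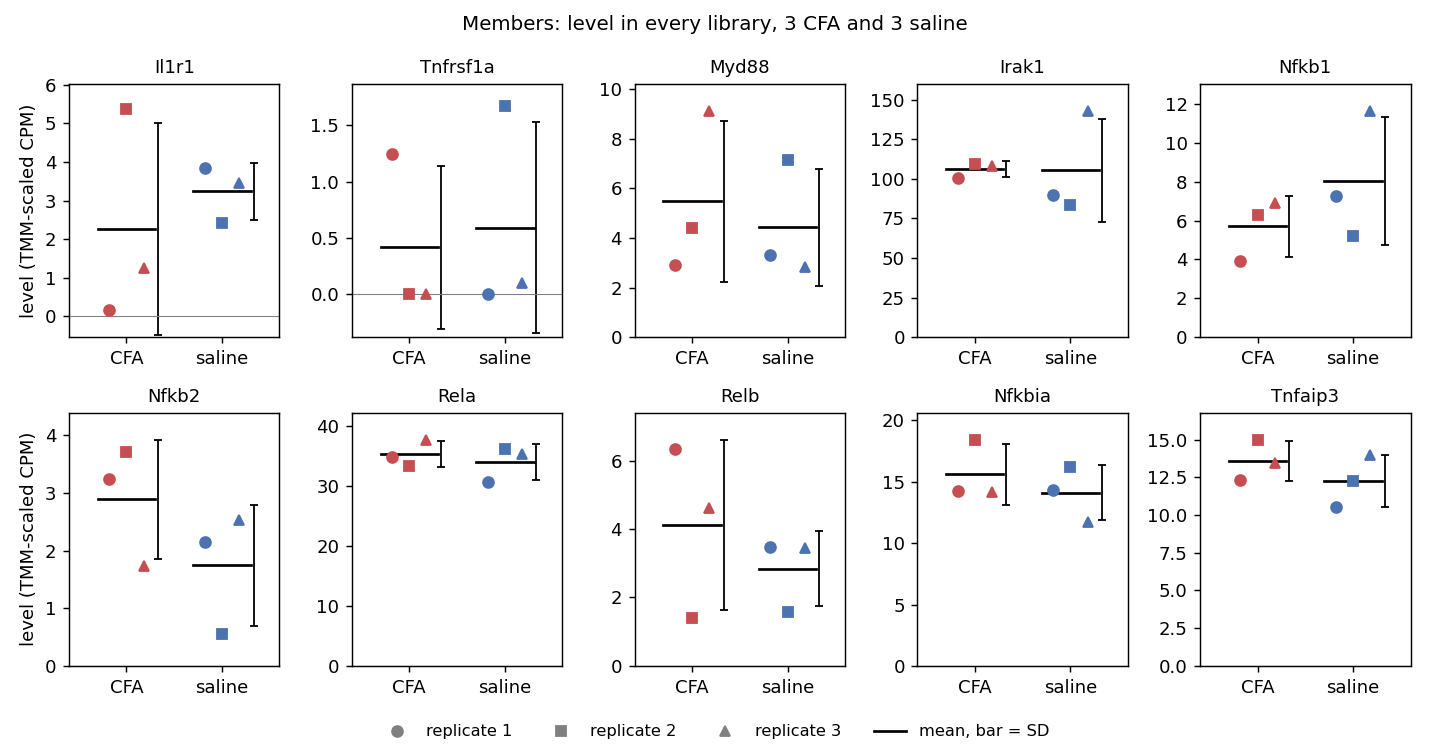
Level of each of the 10 members (TMM-scaled CPM, vertical axis from 0 except where an SD bar reaches below it) in 3 CFA and 3 saline libraries. Symbols are replicates, horizontal lines are group means and bars are SD. CFA and saline libraries overlap in every panel, and Tnfrsf1a is at 0 in 3 libraries.

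The receptors were the sparsest members. Il1r1, the signalling receptor for IL-1 (chromosome 1, 40225080 to 40316177, plus strand, mm10), had 2, 61 and 13 counts in the CFA libraries and 43, 26 and 34 counts in the saline libraries. These were levels of 0.166, 5.38 and 1.25 CPM in CFA libraries, against 3.85, 2.41 and 3.45 CPM in saline libraries. CFA replicate 2 was the highest of all libraries and CFA replicate 1 the lowest, so the CFA libraries bracketed the saline ones. The exact Poisson intervals of the CFA counts, 0.242 to 7.22 in replicate 1 and 46.7 to 78.4 in replicate 2, do not meet, and cover counting error only. The log2 fold change was -0.51 ± 0.86 (SE), with a 95% interval from -2.36 to 1.33 and an adjusted p of 1 by edgeR's quasi-likelihood test. It was 0.03 without CFA replicate 1 and -2.20 without CFA replicate 2, where the unadjusted p was 0.0449 and the adjusted p again 1 by the same edgeR test.

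Tnfrsf1a, the main receptor for soluble TNF (chromosome 6, 125349723 to 125362483, plus strand), had 15, 0 and 0 counts in CFA libraries and 0, 18 and 1 counts in saline libraries. Nearly all of its 34 counts thus came from a single library of each group, and the gene was not tested. A count of 0 allows a level of up to 0.265 and 0.288 CPM in CFA replicates 2 and 3, and up to 0.268 CPM in saline replicate 1. Markers of endothelial cells, a known site of Il1r1 in mouse brain, were uneven, and those given here were named after their values were seen. Over all 6 libraries Cldn5 had 5 counts, Flt1 5, Pecam1 3 and Cdh5 0, while Esam had 295 and Kdr 138, against 179 for Il1r1. The summed level of the 13 endothelial markers was 59.2 to 71.4 CPM in CFA and 50.5 to 57.0 CPM in saline libraries. Most of it was the glucose transporter gene Slc2a1, at 58.0 ± 7.96 CPM with CFA and 46.7 ± 5.16 CPM with saline. The part of these markers in the Il1r1 level was not tested.

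Myd88 and Irak1 stand one step below the IL-1 receptor. Myd88, the adaptor that links that receptor and most Toll-like receptors to the IRAK kinases (chromosome 9, 119335988 to 119340040, minus strand), was at 2.91, 4.41 and 9.13 CPM in CFA libraries and at 3.31, 7.14 and 2.84 CPM in saline libraries. CFA replicate 3 and saline replicate 2 were the high libraries, and the groups overlapped. Myd88 had a log2 fold change of 0.30 ± 0.55 (SE), with a 95% interval from -0.88 to 1.49. Without CFA replicate 3 it was -0.28.

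Irak1, the serine/threonine kinase activated at the receptor complex (chromosome X, 74013914 to 74023921, minus strand), was the most abundant member. It was at 100.3, 109.7 and 108.2 CPM in CFA libraries and at 89.7, 83.4 and 143 CPM in saline libraries. The CFA libraries lay close together, while saline replicate 3 lay above and the other saline libraries below all of them. CFA over saline, the log2 fold change was 0.01 ± 0.21 (SE), with a 95% interval from -0.44 to 0.46, and 0.29 without saline replicate 3. That library was also the one with the highest Malat1 share, whose part in these levels was not tested. Part of its exon sequence, 2% of the length, also belongs to the microRNA genes Mir718 and Mir5132 on the same strand.

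Among the subunits, Rela was steady and the others varied. Rela, the transactivating subunit of the classical dimer (chromosome 19, 5637490 to 5648130, plus strand), was at 34.8, 33.3 and 37.7 CPM in CFA libraries and at 30.6, 36.1 and 35.3 CPM in saline libraries. The highest library was 1.23 times the lowest. CFA over saline, the log2 fold change was 0.05 ± 0.20 (SE), with a 95% interval from -0.38 to 0.48, that is, from 0.77 to 1.40 as a fold.

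Nfkb1 encodes the precursor whose processed form pairs with Rela (chromosome 3, 135584655 to 135691547, minus strand). It was at 3.91, 6.26 and 6.92 CPM in CFA libraries and at 7.25, 5.19 and 11.7 CPM in saline libraries. Saline replicate 3 was again the highest library and CFA replicate 1 the lowest. CFA over saline, the log2 fold change was -0.49 ± 0.43 (SE), with an unadjusted p of 0.270, the smallest of any member, and an adjusted p of 1 by edgeR's quasi-likelihood test. Without saline replicate 3 the log2 fold change was -0.13.

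Nfkb2 and Relb form the dimer of the non-canonical route, which is set off by a subset of TNF-family receptors. Nfkb2 (chromosome 19, 46304737 to 46312090, plus strand) was at 3.25, 3.70 and 1.73 CPM in CFA libraries and at 2.15, 0.556 and 2.53 CPM in saline libraries. Only saline replicate 2, with 6 counts, lay below all CFA libraries. Its log2 fold change was 0.73 ± 0.72 (SE), with a 95% interval from -0.82 to 2.28, and 0.31 without saline replicate 2. Relb (chromosome 7, 19606222 to 19629438, minus strand) was at 6.32, 1.41 and 4.61 CPM in CFA libraries and at 3.49, 1.58 and 3.45 CPM in saline libraries. Replicate 2 was the low library in both groups, and the log2 fold change was 0.54 ± 0.64 (SE), and 0.08 without CFA replicate 1. As folds, the upper ends of the intervals were 4.84 for Nfkb2 and 3.73 for Relb.

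**Figure D2:**
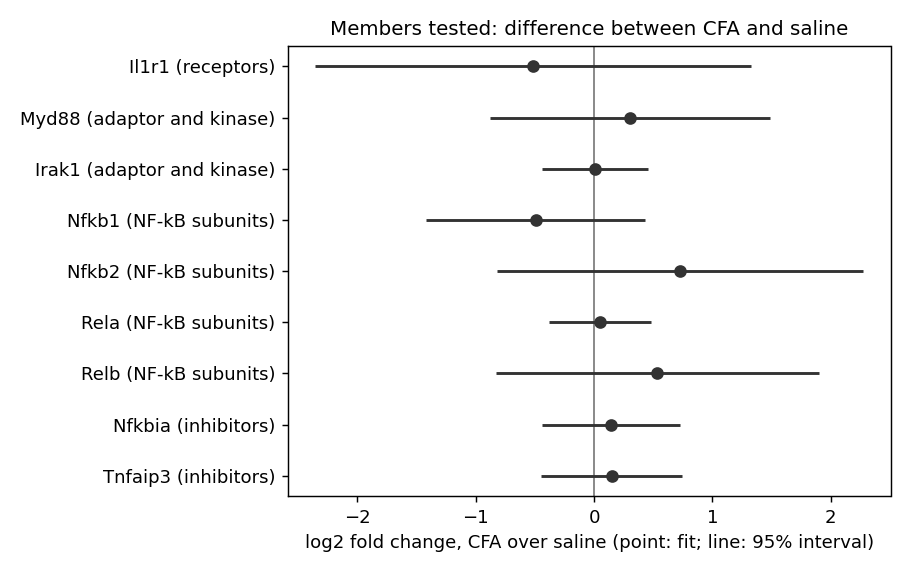
Fitted log2 fold change, CFA over saline, of the 9 members tested (points), with 95% intervals (lines) from edgeR's quasi-likelihood fit. Every interval crosses 0, and those of Irak1, Rela, Nfkbia and Tnfaip3 are the narrowest.

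The inhibitors Nfkbia and Tnfaip3, which NF-kB itself induces, varied little between libraries, the highest being 1.57 times the lowest for Nfkbia and 1.42 times for Tnfaip3. Nfkbia encodes IkB-alpha, which binds the dimers and carries them out of the nucleus (chromosome 12, 55489409 to 55492647, minus strand). It was at 14.2, 18.4 and 14.1 CPM in CFA libraries and at 14.3, 16.2 and 11.8 CPM in saline libraries. CFA replicate 2 was the highest and saline replicate 3 the lowest, with the other libraries between. Its log2 fold change was 0.14 ± 0.27 (SE), with a 95% interval from -0.44 to 0.73, and it lay between 0.0076 (without CFA replicate 2) and 0.26 (without saline replicate 2) with single libraries left out. Tnfaip3 encodes a ubiquitin-editing enzyme that shuts off signalling below the TNF and IL-1 receptors (chromosome 10, 19000910 to 19015410, minus strand). It was at 12.3, 15 and 13.5 CPM in CFA libraries and at 10.6, 12.2 and 14.0 CPM in saline libraries, and CFA replicate 2 was again the highest. Its log2 fold change was 0.15 ± 0.28 (SE), with a 95% interval from -0.45 to 0.74, and it lay between 0.05 (without saline replicate 1) and 0.25 (without saline replicate 3). As folds, the intervals run from 0.739 to 1.66 for Nfkbia and from 0.733 to 1.68 for Tnfaip3, so a change of 2-fold in either direction lies outside both.

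The promoters of these feedback genes are shown because they are known to carry the DNA element through which NF-kB acts on its own regulators. Sequences are from RefSeq (GRCm38.p6, the same coordinates as mm10) and run 5′ to 3′ on the gene's strand from 250 bases before to 50 after the transcription start. Capitals mark every match to the NF-kB consensus motif on either strand, with overlapping matches run together.
Nfkbia, chr12:55492598-55492897, minus strand: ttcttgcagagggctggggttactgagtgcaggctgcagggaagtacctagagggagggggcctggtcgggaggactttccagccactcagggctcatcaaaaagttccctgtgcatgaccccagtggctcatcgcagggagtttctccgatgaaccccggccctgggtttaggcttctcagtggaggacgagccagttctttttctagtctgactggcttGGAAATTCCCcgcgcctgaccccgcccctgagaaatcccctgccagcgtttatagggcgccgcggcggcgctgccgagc
Tnfaip3, chr10:19015361-19015660, minus strand: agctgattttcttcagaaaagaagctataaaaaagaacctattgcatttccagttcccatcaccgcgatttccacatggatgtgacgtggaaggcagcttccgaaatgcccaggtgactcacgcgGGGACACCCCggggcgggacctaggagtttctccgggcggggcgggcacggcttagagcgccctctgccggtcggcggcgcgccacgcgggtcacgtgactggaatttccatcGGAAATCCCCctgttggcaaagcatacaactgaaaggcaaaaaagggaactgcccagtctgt
Nfkb2, chr19:46304487-46304786, plus strand: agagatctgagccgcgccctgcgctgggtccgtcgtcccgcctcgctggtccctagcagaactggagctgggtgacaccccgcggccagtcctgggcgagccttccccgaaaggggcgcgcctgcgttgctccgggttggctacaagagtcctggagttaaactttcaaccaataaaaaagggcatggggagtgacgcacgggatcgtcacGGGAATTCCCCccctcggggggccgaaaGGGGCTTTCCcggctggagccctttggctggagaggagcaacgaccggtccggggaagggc
With the first transcribed base as 1 and the base before it as -1, Nfkbia held GGAAATTCCC at -29 to -20. Tnfaip3, shown at the first of its 2 listed starts, held GGAAATCCCC at -12 to -3 and GGGACACCCC at -125 to -116. The window at its second start held 0 matches. Nfkb2, shown at the first of its 3 listed starts, held the overlapping matches GGGAATTCCC and GGAATTCCCC, beginning at -39 and -38, and GGGGCTTTCC at -11 to -2. For 8 members 13 promoters were listed, and 8 of the 13, belonging to Nfkbia, Tnfaip3, Nfkb2, Irak1 and Il1r1, held the motif. Of all 32851 listed mouse promoters of this length, 8.46% held it. Promoters of 1 gene can overlap. A match describes the letters only.

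Set per kilobase of exon, so that genes can be compared, the members ranged widely in level. In order of mean level over the 6 libraries they were Irak1 (26.7 ± 5.31 CPM per kb, SD, n = 6), Rela (12.8 ± 0.901), Nfkbia (9.40 ± 1.43), Tnfaip3 (2.81 ± 0.339), Myd88 (2.60 ± 1.37), Nfkb1 (1.67 ± 0.642), Relb (1.58 ± 0.845), Nfkb2 (0.705 ± 0.341), Il1r1 (0.546 ± 0.373) and Tnfrsf1a (0.233 ± 0.349). Irak1 was above Rela, and Nfkbia above Tnfaip3, in all 6 libraries with no overlap of their ranges. Rela was above Nfkbia within each of the 6 libraries, although their ranges met. From Tnfaip3 downward each member overlapped the next, and the order held in 4 or 5 of 6 libraries only. Rela per kb was 13.5, 8.09 and 8.28 times Nfkb1 in CFA libraries and 6.42, 10.6 and 4.60 times in saline libraries, so the groups overlapped. Nfkbia was 0.702, 0.949 and 0.643 times Rela in CFA libraries and 0.803, 0.772 and 0.572 times in saline libraries, which also overlapped.

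**Figure D3:**
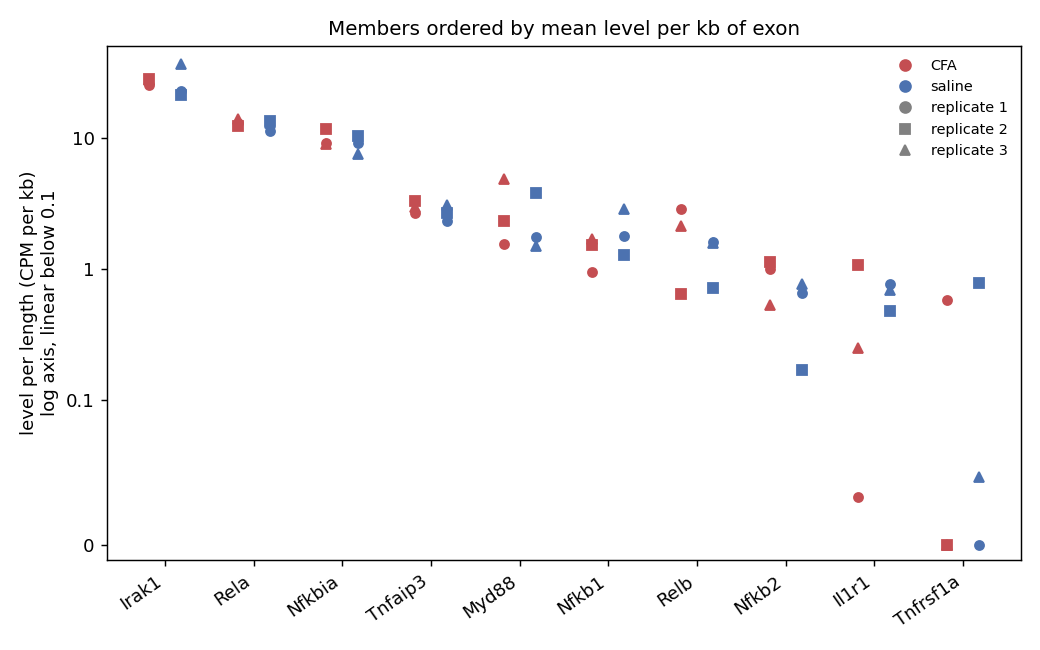
Level per length of the 10 members (CPM per kb of exon, logarithmic axis, linear below 0.1) in each library, ordered by the mean over 6 libraries, with CFA libraries left of saline libraries for each gene. Irak1, Rela and Nfkbia stand above the rest in both groups, and the sparse receptors spread widest.

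Spread between libraries differed widely among members. Measured against counting error alone, the chi-square per degree of freedom over 6 libraries was 1.43 for Rela, 2.25 for Tnfaip3 and 3.49 for Nfkbia, against a median of 13.1 over all genes tested. It was 15.1 for Il1r1, 13.5 for Myd88, 11.6 for Relb, 11.4 for Nfkb1, 6.31 for Nfkb2 and 48.8 for Irak1. The fitted biological coefficient of variation ran from 18.3% for Rela and 18.6% for Irak1 to 69.5% for Il1r1, against a median of 21.8% over all genes tested. CFA replicate 2 was the highest library for 4 of the 9 members tested (Il1r1, Nfkb2, Nfkbia and Tnfaip3), where it was the highest for 15% of all genes tested. Saline replicate 3 was the highest for Irak1 and Nfkb1, and for 23.9% of all genes tested.

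The genes with the most similar profile were looked for among 10766 genes, by the root-mean-square distance between centred log2 CPM over 6 libraries. Nearest to Nfkbia were Rnf25, Ypel5 and Lmo4, at distances of 0.0334, 0.0509 and 0.0515 log2 units, where Nfkbia itself deviated by 0.197 from its mean. Nearest to Tnfaip3 were Lnx1, Prkcsh and Desi2, at distances of 0.0338, 0.0393 and 0.049 log2 units. Myd88 had Pak4, Fgf5 and Cdh9 nearest, at distances of 0.203 to 0.306 log2 units. For Il1r1 the nearest genes, Prex2, Nmnat3 and Suox, were 0.606 to 0.708 log2 units away. With 6 libraries and so many genes such lists are a description only.

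The other genes of the pathway were taken from 7 lists by role, 130 genes beside the members, of which 74 passed the filter on low counts. None was called by edgeR's quasi-likelihood test (0 of 74 at an adjusted p under 0.05), with 37 positive and 37 negative log2 fold changes and a median of 0.01. At an unadjusted p under 0.05 there were 3 higher and 2 lower in CFA libraries, 6.76% of the list, against 3.22% of all genes tested. Of these 5, Nlrc5 and Il1r2 passed the filter only through the group where they are high. The CFA and saline libraries did not overlap for 7 of the 74, that is 9.46%, against 7.51% of all genes tested. DESeq2 and limma-voom called 0 of the 74, and 5 and 0 of all genes tested. At an unadjusted p under 0.05 they had 5 and 6 of the 74, and 457 and 469 of all 13560 genes tested. The likelihood ratio test of edgeR called 1, Nlrc5, and the calls of that test over all genes are given at the end.

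Il33 and Il18 were the only ligands with enough counts to be tested. Of 15 genes for IL-1 and TNF family ligands and the IL-1 receptor antagonist, 7 had no count in any library, among them Tnf, Il1rn and Cd40lg, and 2 were tested. A count of 0 allows a level of up to 0.25 to 0.304 CPM, depending on the library. Il1b, the main secreted IL-1 of glia, had 37 counts in all 6 libraries together, at 0.525 ± 0.196 CPM with CFA and 0.599 ± 0.197 CPM with saline. Il33, a nuclear alarmin of the IL-1 family made by astrocytes and oligodendrocytes, was at 14.0, 13.4 and 7.02 CPM in CFA libraries and at 7.52, 10.4 and 4.46 CPM in saline libraries. The groups overlapped, and the log2 fold change was 0.62 ± 0.40 (SE), which was 0.94 without saline replicate 2 and 0.36 without saline replicate 3. The summed level of 10 astrocyte markers lay higher in every CFA library, as given above, and its part in the Il33 level was not tested. Il18 was at 6.94 ± 2.27 CPM with CFA and 5.35 ± 0.215 CPM with saline, a log2 fold change of 0.38 ± 0.42 (SE), which was 0.17 without CFA replicate 2 and 0.62 without CFA replicate 3. Il1b, Tnf, Il1rn and Cd40lg, and the receptors Il1rap and Tlr3 described next, were named after their values were seen.

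Of 22 other receptors 6 were tested, with a median log2 fold change of 0.19. Il1r2, the decoy receptor that binds IL-1 without signalling (chromosome 1, 40084768 to 40125226), had 8, 3 and 5 counts in CFA libraries and 18, 27 and 18 counts in saline libraries. Its levels of 0.666, 0.265 and 0.481 CPM in CFA libraries lay below the 1.61, 2.50 and 1.82 CPM of the saline libraries. The log2 fold change was -2.04 ± 0.81 (SE), with an unadjusted p of 0.0244 and an adjusted p of 1 by edgeR's quasi-likelihood test. Il1r2 passed the filter on low counts only through the saline libraries, where it is high, so its values are a description. Il1rap, the accessory chain that Il1r1 needs in order to signal, was far more abundant than Il1r1, at 10.4 ± 1.98 CPM per kb over 6 libraries. It was at 95 ± 19.7 CPM with CFA and 82.2 ± 14.0 CPM with saline. Tnfrsf21, a death-domain receptor of neurons and the most abundant receptor on the list per length, was at 262.7, 251.8 and 262.5 CPM in CFA libraries and at 208.2, 234.1 and 216.2 CPM in saline libraries. The groups did not overlap, but the log2 fold change of 0.24 ± 0.16 (SE) had an unadjusted p of 0.158 and an adjusted p of 1 by edgeR's quasi-likelihood test. Tlr3, the endosomal sensor of double-stranded RNA, which signals without Myd88, had 7, 13 and 11 counts in CFA libraries and 0 in each saline library. It did not pass the filter on low counts. Its CFA mean was 3.28 times a saline floor of 3 counts per library. That ratio does not cover the spread between libraries. Counts in every CFA library and in no saline library were seen for 0.37% of 18084 genes detected.

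Between receptor and NF-kB most genes were detected and none was called. Of 25 tested adaptors and proximal kinases 11 had a positive and 14 a negative log2 fold change, with a median of -0.0045. Tollip, a binding partner of the IL-1 receptor complex and the most abundant of them per length, was at 197 ± 27.6 CPM with CFA and 198 ± 27.2 CPM with saline. Irak2, a kinase related to Irak1, was at 21.7 ± 4.55 CPM with CFA and 28.0 ± 7.63 CPM with saline, and the ubiquitin ligase gene Birc3 at 1.16 ± 0.592 CPM with CFA and 2.53 ± 1.78 CPM with saline. All 7 genes of the IKK group were tested, with a median of -0.13. Chuk, a catalytic subunit of IKK, was at 198 ± 32.8 CPM with CFA and 221 ± 49.3 CPM with saline. Ikbkb, the other catalytic subunit, was at 60.7, 63.5 and 66.2 CPM in CFA libraries, all below the 67.1, 68.6 and 89.5 CPM of the saline libraries. Its log2 fold change was -0.24 ± 0.19 (SE), with an unadjusted p of 0.215 and an adjusted p of 1 by edgeR's quasi-likelihood test, and -0.10 without saline replicate 3. Ikbke, an IKK-related kinase of innate immunity, was at 0.541 ± 0.490 CPM with CFA and 0.993 ± 0.585 CPM with saline. Of 6 tested relatives of Rel and IkB, 3 were positive and 3 negative. Nfkbib, which encodes IkB-beta, was at 34.6 ± 4.88 CPM with CFA and 29.0 ± 9.19 CPM with saline, and 14.6% of its exon length overlaps Gm6537 on the opposite strand. Nfkbie, another IkB gene, was at 2.93 ± 0.811 CPM with CFA and 1.48 ± 1.58 CPM with saline, with 0 counts in saline replicate 1.

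**Figure D4:**
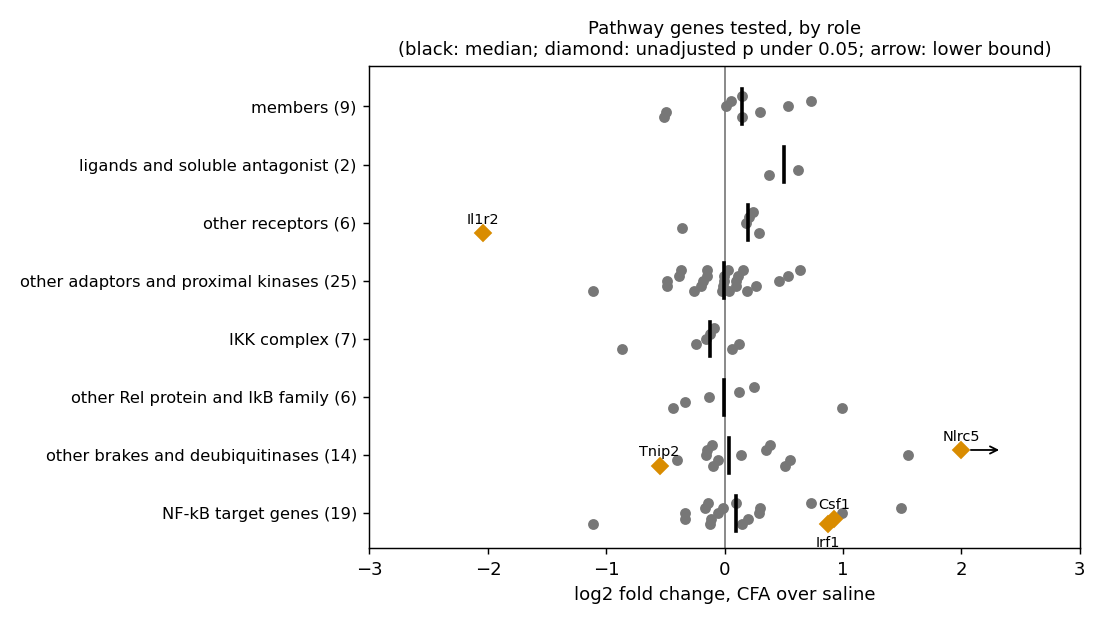
Fitted log2 fold change, CFA over saline, of the 9 members and of the tested genes of the 7 pathway lists (number tested in brackets). Black bars are medians, diamonds are genes at an unadjusted p under 0.05, and Nlrc5, with 0 counts in every saline library, is drawn at its lower bound of 2 with an arrow. Medians of the lists with 6 or more tested genes lie between -0.126 and 0.194.

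Among 14 tested brakes and deubiquitinases 7 were positive and 7 negative, with a median of 0.04, also with Nlrc5 at its bound. Rnf11, a partner of Tnfaip3 and the most abundant of them per length, was at 301.3 ± 28.0 CPM with CFA and 274 ± 34.0 CPM with saline. Tnip2, which binds Nfkb1 precursor and restrains signalling, was at 27.5, 29.5 and 23.7 CPM in CFA libraries, all below the 33.4, 32.7 and 52.1 CPM of the saline libraries. The log2 fold change was -0.55 ± 0.24 (SE), with an unadjusted p of 0.0350 and an adjusted p of 1 by edgeR's quasi-likelihood test, and -0.29 without saline replicate 3. Nlrc5, best known as the transactivator of MHC class I genes and also described as a brake on NF-kB (chromosome 8, 94472763 to 94527272), had 11, 15 and 12 counts in CFA libraries and 0 in each saline library. Its CFA mean was 3.99 times a saline floor of 3 counts per library, a ratio that does not cover the spread between libraries. Nlrc5 passed the filter only through the CFA libraries, so its p-values, and its single call, are conditional on being high there. Its adjusted p was 0.952 in edgeR's quasi-likelihood test and 0.00515 in the likelihood ratio test. It ranged from 0.455 to 1 over the other alternatives. Over the whole table, 67 of 18084 genes detected (0.37%) had counts in every CFA library and none in any saline library, and 14 the reverse.

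Classical inflammatory targets such as Il6, Nos2 and Cxcl1 had no counts, and none of the detected ones was called. Of 40 NF-kB target genes 19 were tested, 10 positive and 9 negative, with a median log2 fold change of 0.09. The 40 include the member Nfkb2, and also Nfkbie, Nfkbiz, Birc3, Tnip1 and Traf1, which other lists hold too. In all 8 had no count in any library (Sele, Cxcl1, Cxcl2, Il6, Nos2, Lcn2, Csf2 and Traf1, named after their values were seen), and the 2 target genes at an unadjusted p under 0.05 were Irf1 and Csf1. Irf1, a transcription factor induced by NF-kB and by interferons (chromosome 11, 53770014 to 53778374), was at 11.6, 15.3 and 14.1 CPM in CFA libraries and at 7.07, 7.70 and 7.60 CPM in saline libraries. The lowest CFA library lay above the highest saline library. The log2 fold change was 0.87 ± 0.31 (SE), between 0.78 and 0.97 with any single library left out, with an unadjusted p of 0.0125 and an adjusted p of 1 by edgeR's quasi-likelihood test. Csf1, the growth factor that maintains microglia (chromosome 3, 107741048 to 107760469), was at 18.4, 13.8 and 9.23 CPM in CFA libraries and at 9.75, 4.27 and 7.80 CPM in saline libraries. CFA replicate 3 lay among the saline libraries, and the log2 fold change was 0.92 ± 0.38 (SE), with an unadjusted p of 0.0286 and an adjusted p of 1 by edgeR's quasi-likelihood test. Bcl2l1, an anti-apoptotic gene and the most abundant target per length, was at 109.9 ± 3.74 CPM with CFA and 119 ± 10.8 CPM with saline.

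Summed levels of glial markers averaged higher in CFA libraries, in part without overlap. The sum of 10 astrocyte markers averaged 282 ± 48.9 CPM with CFA and 209 ± 7.13 CPM with saline, and that of 5 oligodendrocyte precursor markers 32.3 ± 6.42 CPM with CFA and 18.7 ± 3.69 CPM with saline, both without overlap. Much of the astrocyte sum was Aldoc, at 176 ± 30.0 CPM with CFA and 124 ± 14.1 CPM with saline. Aldoc, Slc1a3 and Fgfr3 were higher in CFA libraries without overlap. Gfap, S1pr1, Sox9 and Gjb6 averaged higher with CFA and overlapped, while Gja1, Aqp4 and Aldh1l1 averaged lower with CFA and overlapped. Most of the precursor sum was Olig1, at 20.71 ± 3.11 CPM with CFA and 12.35 ± 1.81 CPM with saline. Gpr17, Pdgfra and Olig2 also averaged higher with CFA. Cspg4 went the other way without overlap, at 1.75 ± 0.685 CPM with CFA and 3.77 ± 0.0282 CPM with saline. The sum of 7 oligodendrocyte markers, 383 ± 82.1 CPM with CFA and 364 ± 44.6 CPM with saline, overlapped. The sum of 17 microglia markers averaged 153 ± 33.8 CPM with CFA and 119 ± 30.6 CPM with saline and overlapped. Of 6 blood immune markers 4 had no count in any library, and the summed level stayed at or below 1.32 CPM. The part of glial transcripts in the levels of Irf1, Csf1, Nlrc5 and Tlr3 was not tested.

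**Figure D5:**
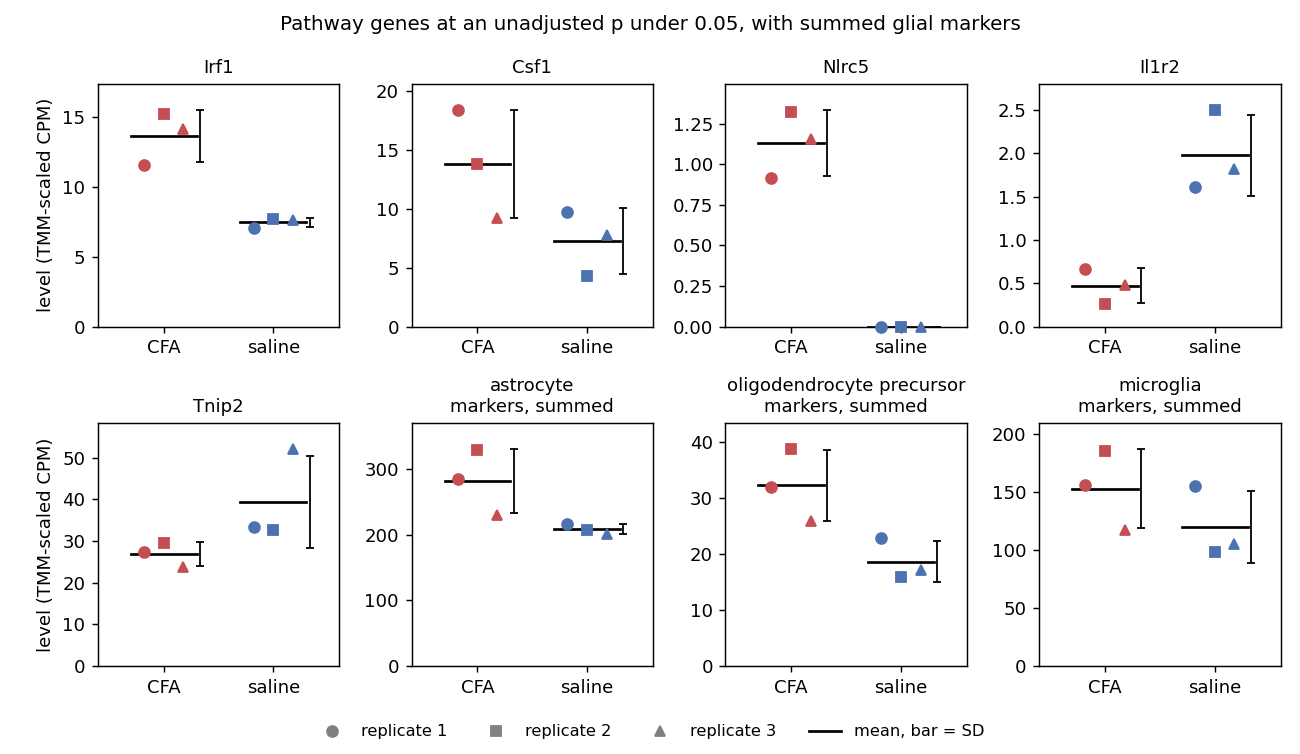
Level (TMM-scaled CPM, axes from 0) of the 5 pathway genes at an unadjusted p under 0.05 and summed level of 3 lists of glial markers in 3 CFA and 3 saline libraries. Symbols are replicates, lines are means and bars are SD. CFA libraries lie above saline libraries for Irf1, Nlrc5, astrocyte and oligodendrocyte precursor markers, and below for Il1r2 and Tnip2.

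The promoters of Irf1 and Csf1 are shown for comparison with those of the feedback genes, in the same format.
Irf1, chr11:53769764-53770063, plus strand: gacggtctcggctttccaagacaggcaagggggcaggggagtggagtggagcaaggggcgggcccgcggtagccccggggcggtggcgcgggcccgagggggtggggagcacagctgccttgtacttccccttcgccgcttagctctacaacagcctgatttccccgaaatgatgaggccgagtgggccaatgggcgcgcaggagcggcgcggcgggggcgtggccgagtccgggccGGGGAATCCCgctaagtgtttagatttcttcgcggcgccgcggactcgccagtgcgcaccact
Csf1, chr3:107760420-107760719, minus strand: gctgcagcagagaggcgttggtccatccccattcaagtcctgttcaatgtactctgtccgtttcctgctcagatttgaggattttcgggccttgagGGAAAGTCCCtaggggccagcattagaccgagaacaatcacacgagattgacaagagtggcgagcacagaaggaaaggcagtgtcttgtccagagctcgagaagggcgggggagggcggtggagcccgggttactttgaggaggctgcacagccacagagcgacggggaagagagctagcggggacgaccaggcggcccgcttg
Irf1, shown at the first of its 2 listed starts, held GGGGAATCCC at -13 to -4, and Csf1 held GGAAAGTCCC at -154 to -145. Irf1 also held TTCCCCGAA at -90 to -82, a match to TTCNNNGAA, the core of the STAT-binding element, and so did Nfkb2 at -148 to -140. Searched on both strands, TTCNNNGAA was present in 8.30% of all promoters of this length. It does not overlap the NF-kB match in Irf1 or Nfkb2. Promoters of the members Tnfrsf1a and Myd88, and of Il1r2 and Tnip2, also held TTCNNNGAA. The log2 fold changes given above were -2.04 for Il1r2, -0.55 for Tnip2 and 0.30 for Myd88. Irf1 and Nfkb2 thus share both motifs in the windows shown. At their other listed starts, Irf1 held neither motif and Nfkb2 only the NF-kB motif. Their log2 fold changes were 0.87 ± 0.31 and 0.73 ± 0.72 (SE), and the groups overlapped for Nfkb2 only. The part of either motif in these levels was not tested.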

How the data were processed

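RNA of sorted nuclei was measured in 6 libraries (Smart-seq V4 with 9 PCR cycles, 300 ng of cDNA into Nextera XT, per the labels' protocols). The kits do not mark strand. The authors deposited raw counts per gene, with exon intervals and exon length, per the file headers. The submitters' processing notes name Trim Galore, HISAT2 2.2.1, SAMtools 1.13, featureCounts 2.0.1, edgeR 3.32.1 and mm10. Settings for strand and multiple mapping were not stated. Groups and replicate numbers came from sample titles.

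Counts were fitted with edgeR 4.0.16 (R 4.3.3) by the quasi-likelihood test with TMM factors, the default filterByExpr filter and treatment as the only term, adjusting over 13560 genes at a threshold of 0.05. Standard errors come from the F statistic and 95% intervals from the fit's degrees of freedom. Scripts were tested on simulated data. Alternatives used limma 3.58.1, DESeq2 1.42.0, other scalings and filters, a replicate block and each library left out. Total counts were 9673038 to 11850741, and for most genes the spread between libraries, above counting error, set the precision. Poisson intervals and floors of 3 counts cover counting error only, since PCR reads lack molecular identifiers and can repeat a molecule. No pair of libraries was a copy (the lowest chi-square per degree of freedom was 16.4).

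The members and lists were chosen with earlier results of these data known. From each pathway list the 2 tested genes with the smallest p and the most abundant per length are named, and for 4 members the 3 nearest profiles. Of 242 listed genes 4 were found under another symbol and 1 was not found. Promoters come from RefSeq, GRCm38.p6.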

Additional observations from a re-analysis of the deposited data

How the results depend on the processing

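The 14 alternatives gave 122 values for the 9 members tested, of which 0 passed the threshold (lowest adjusted p of 0.792) and 9 changed sign. Of these, Irak1 was at -0.0017 with RLE scaling and -0.0018 in DESeq2. With single libraries left out, the log2 fold changes ran from -0.131 to 0.294 for Irak1, from -0.276 to 0.831 for Myd88, from -2.20 to 0.034 for Il1r1 and from -0.019 to 0.101 for Rela. The median of the members was 0.0501 under the 5 CPM filter (in 3 or more libraries), which left 5 members, and ran from 0.0146 to 0.150 with single libraries left out. The cause was not tested. Over all genes, calls numbered 0 with all libraries, 9 without a filter on low counts, 5 in DESeq2, 11 in the likelihood ratio test and 0 to 5 with single libraries left out (5 without saline replicate 3). Of the other pathway genes 1 was called in the likelihood ratio test. Signs were followed only for pathway genes picked for their low p-values, 2 per list, and 0 of these 190 values changed sign. Genes picked in this way are less likely to change sign. The signs of the remaining tested pathway genes were not followed. Tnfrsf1a passed the filter in 5 alternatives, with log2 fold changes from -1.05 to 0.0986 and adjusted p of 0.962 or more.

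The labels do not say whether replicate numbers pair the libraries, and 3 libraries per group are too few to decide it. Deviations of same-numbered libraries correlated at -0.0793, 0.0249 and -0.0692, and those of differently numbered libraries at -0.0791 to 0.146. With a replicate block, 6 genes were called over all genes and 0 members. With 34 counts in all, Tnfrsf1a could not be tested in the fit reported. For the 9 members tested the variance between libraries was 1.43 to 48.8 times that of counting error (chi-square per degree of freedom). This ratio rises with the counts of a gene: Irak1, at 48.8, had a fitted biological coefficient of variation of 18.6%.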
